A study of Sus scrofa with 24 samples.

Results

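The 120 genes described here are the members of the spliceosome pathway in a deposited table of 20674 pig genes. The table's own pathway annotation names 123 such genes, and HSPA2, HSPA6 and HSPA8, the heat shock genes whose names begin with HSPA, were left out. HSP70.2 is a heat shock gene too, but its name begins otherwise and it stayed among the 120. No measured value entered this choice. The pathway was, however, taken up with results on dietary N-carbamylglutamate (NCG) in the ileum already known, so for NCG in the ileum, interaction with fibre included, calls and counts are listed below as a description and nothing is read from them. Earlier results of these data were known when the genes and lists were chosen, and how far they covered other comparisons is not stated. With that limit, the colon, fibre and tissue comparisons were tested. The difference between tissues in the NCG change is an exception, because it takes in the ileum NCG values, and it is listed as a description as well.

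RNA was measured in the ileum, the last stretch of the small intestine, and in the colon of female pigs (sows) on gestation day 114. The sows had eaten 1 of 4 diets since breeding: LF with 3.73% crude fibre, LN with 3.73% crude fibre and 0.05% NCG, HF with 7.46% crude fibre, and HN with 7.46% crude fibre and 0.05% NCG. NCG is a stable analogue of N-acetylglutamate, the molecule that switches on the first enzyme of the urea cycle. Each diet was fed to 100 sows, and the table holds 3 libraries for every combination of diet and tissue, 24 altogether. The labels name no strain, and they do not say whether the 3 libraries of a group came from separate sows or whether ileum and colon libraries share sows. The p-values below therefore measure the spread between libraries, which may be partly technical.

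The spliceosome removes introns from new transcripts. Small nuclear ribonucleoproteins (snRNPs), each a small RNA held in a ring of Sm or LSm proteins, recognise the splice sites: U1 the 5′ site and U2 the branch point, after which the U4/U6.U5 tri-snRNP joins. The PRP19 complex and DEAH-box helicases then drive the catalytic steps, SR proteins and hnRNPs steer the choice of sites, and the exon junction and TREX complexes mark the spliced message and hand it to export. Every cell that splices uses this machinery, in the gut as elsewhere.

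Libraries held 11951729 to 19896941 counts in the ileum and 14843272 to 18575695 in the colon, and the 120 genes took 1.1% to 1.92% and 1.06% to 1.33% of them. The libraries also differed in which cells they held. Summed CPM (each gene's count scaled to a common library size by TMM normalisation) of 5 epithelial markers (EPCAM, CDH1, VIL1, KRT8 and CLDN7) were 98.8 in colon LF 2 and 207 in colon HN 1, against 1940 to 8830 in the other 10 colon libraries. The same pair had the highest sums of 8 smooth muscle markers, 98700 and 95900 CPM. Among the ileum libraries, LN 3 stood apart with an adipocyte marker sum of 3660 CPM against 16.6 to 56.1 elsewhere. Ileum LF 3 had a smooth muscle sum of 40800 CPM against 750 to 9070 elsewhere. Ileum HN 2 had the lowest epithelial sum, 923 CPM against 2570 to 5680. It also had the highest B cell marker sum, 978 CPM against 4.46 to 452. FABP6, the ileal bile acid binding protein and a defining ileal marker, passed 500 CPM in 3 of the 12 (LF 1, HF 2 and HN 2). In the remaining ileum libraries it lay at 0 to 41.2 CPM. These FABP6 values are CPM without TMM normalisation. SLC10A2, another ileal marker, had a median of 0.238 CPM in the ileum and 6.63 in the colon. Medians of APOA1, APOA4 and SI were higher in the ileum (3020, 266 and 381 CPM) than in the colon (33.1, 0.0894 and 11.7). The position of each ileum library along the small intestine is therefore uncertain. HOXD13 and HOXB13, genes of the hindgut, reached at most 0.193 and 0.0955 CPM in the ileum and at least 0.619 and 0.187 CPM in the colon. In such whole-tissue samples, fewer cells of a type and less RNA per cell cannot be told apart.

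Every one of the 120 genes was read in every library, with 40 to 16624 counts per gene and library, and all passed the filter on low counts in every comparison. Their median coefficient of variation over the 24 libraries was 18.8%, against 41.9% for all genes tested in that model, which were not matched to the 120 for level. Levels between genes were compared in deposited FPKM, which is scaled by gene length. HNRNPA1, an abundant nuclear RNA-binding protein, had the highest level, with a median of 319 FPKM in the ileum and 277 in the colon. It was followed in both tissues by HNRNPK (207 and 198), PCBP1 (195 and 165) and SRSF6 (155 and 138). The lowest was PRPF40B, a U1-associated scaffold, with 1.56 and 1.69 FPKM, and SLU7 (3.08 and 3.25) and THOC2 (4.05 and 4.16) were also near the bottom. THOC2 and THOC1 were among the most variable, with coefficients of 48.9% and 48.8%. HNRNPA1, PCBP1, RBMX and the pair MAGOH and MAGOHB have near-identical copies or processed pseudogenes, and LOC100738822 and LOC100739098 share a product name, so reads of these genes may be shared with copies and their values are uncertain.

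In the ileum, 12 of the 120 genes were higher and 9 lower with NCG, averaged over both fibre levels (edgeR, Benjamini-Hochberg adjusted p under 0.05). That is 17.5% of them beside 5.85% of all 15103 genes tested (5.42% higher and 0.43% lower), shares that are not read further because NCG in the ileum led to the pathway being taken up. The higher genes included THOC2 and THOC1 of the TREX export complex, RBM25 of the U1 step, U2SURP, SF3B1 and DDX46 of the U2 step, and the SR-type regulators TRA2A and SRSF10. The lower genes were SNRPE and SNRPF of the Sm ring, LSM7 of the LSm ring, SF3B5 of the U2 particle, MAGOH and RBM8A of the exon junction complex, CTNNBL1 and BUD31 of the PRP19 group, and the U2 cofactor PUF60. The median change of the 120 was -0.24 on the log2 scale, against -0.07 for all tested genes, and 38 values were positive and 82 negative. Epithelial marker sums were 923 to 5080 CPM in the ileum libraries with NCG and 2740 to 5680 in those without, and sums of 8 proliferation markers were 85.2 to 882 and 577 to 810, with LN 3 lowest for proliferation. Their part in the gene values was not tested.

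**Figure D1:**
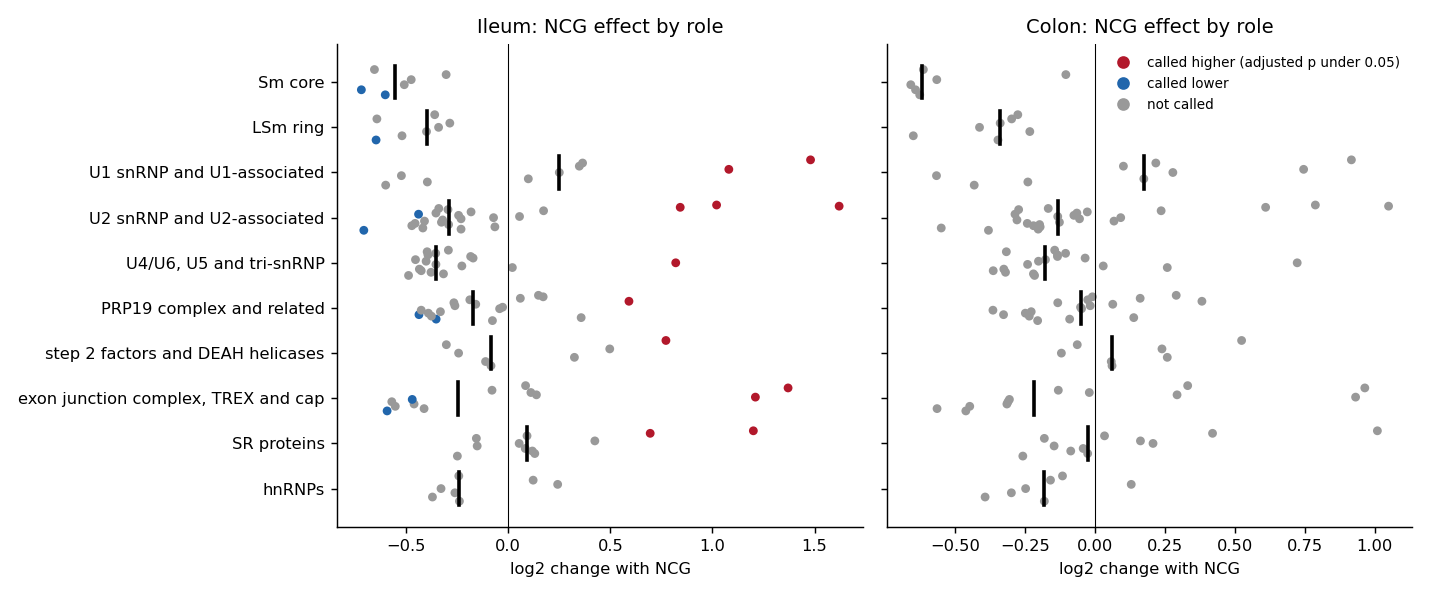
Log2 change with NCG (horizontal axis) for the spliceosome genes grouped by role (vertical axis), in the ileum and the colon; each point is 1 gene, the black bar is the median of its group, and red and blue mark genes called higher or lower. All 6 Sm and all 7 LSm genes lie left of 0 in both tissues, while genes called higher in the ileum, U2SURP at 1.62 the farthest, share the U2 and TREX groups with genes called lower (SF3B5 at -0.71 and MAGOH at -0.59).

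The Sm ring is the protein core that U1, U2, U4 and U5 share. All 6 measured Sm genes had negative values in the ileum (median -0.56), and SNRPE and SNRPF were called. SNRPE lies on chromosome 9 (64560544 to 64567007, plus strand, Sscrofa11.1) and is the shortest of the 120, with a deposited length of 462 bases. Its CPM in the 3 ileum libraries were 73.2, 81.9 and 73.5 on LF and 58.7, 42.4 and 35.7 on LN. On HF they were 80.1, 70.5 and 75, and on HN 55.9, 58.2 and 56.4. All 6 libraries with NCG lay below all 6 without, a fall of 0.60 ± 0.13 (log2 ± SE). SNRPF fell by 0.72 ± 0.18, and its libraries ran from 5.11 to 12 CPM with NCG and from 13.2 to 18.1 without, again with no overlap. SNRPG (-0.66 ± 0.21), SNRPD1 (-0.51 ± 0.19), SNRPD3 (-0.47) and SNRPD2 (-0.30) did not pass.

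The LSm ring holds U6 RNA, and its 7 genes all had negative values as well (median -0.40). LSM7 was the one called, with a change of -0.65 ± 0.16. It was read at 32.3, 32.4 and 25.6 CPM on LF against 25.9, 18.3 and 15.2 on LN, and at 35.8, 26.8 and 30.5 on HF against 23.6, 17.2 and 19.2 on HN. The 2 groups met only at LF 3 and LN 1. LSM4 (-0.64), LSM3 (-0.52) and LSM2 (-0.40) were the next lowest.

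Of the 9 genes of the U1 snRNP and its partners, 2 were called higher. RBM25, which recruits U1 to regulated exons, rose by 1.08 ± 0.19, from 35.6 to 60.6 CPM without NCG to 67.0 to 150 with it. The U1 core proteins did not move alike: SNRPA had -0.60, SNRPC -0.40 and SNRNP70 0.10, none of them called.

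The U2 group, with 23 genes, had 3 called higher and 2 lower. U2SURP, a U2-associated SR-like protein on chromosome 13 (83704501 to 83759800, plus strand), showed the largest change of the 120, 1.62 ± 0.23. It was at 29.2, 23.4 and 19.0 CPM on LF and 88.2, 59.0 and 144 on LN, and at 35.3, 46.7 and 26.5 on HF and 84.4, 103 and 72.6 on HN. The highest library, LN 3, is the one with the adipocyte markers, and the NCG groups cleared the others without it too. SF3B1, the subunit that clamps the branch point, rose by 1.02 ± 0.20, with 370, 281 and 248 CPM on LF and 520, 539 and 928 on LN, and 337, 419 and 312 on HF and 627, 863 and 562 on HN. Its partners in the same SF3B particle went the other way in value. SF3B5, the smallest of them, on chromosome 1 (21231264 to 21232014, plus strand), fell by 0.71 ± 0.16, with 57.3, 58.0 and 55.0 CPM on LF and 41.6, 33.1 and 31.2 on LN. On HF it stood at 72.6, 49.8 and 76.7 CPM and on HN at 46.8, 32.2 and 45.6, so that no library with NCG reached one without. SF3B2, SF3B3, SF3B4, SF3B6 and PHF5A had values of -0.34, -0.29, -0.46, -0.23 and -0.29, none called. DDX46, the helicase that remodels U2, rose by 0.84 ± 0.16 and PUF60, a U2AF-like factor, fell by 0.44 ± 0.11.

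The tri-snRNP genes, 17 in number, had 15 negative values and a median of -0.35, and the one called was PRPF38B, a PRP38-family protein, higher by 0.82 ± 0.14. PRPF38B had 48.1 to 75.6 CPM in the 6 libraries without NCG and 99.3 to 147 in the 6 with it. PRPF8, the large U5 protein at the catalytic centre, had -0.35 ± 0.12 and the U5 helicase SNRNP200 had -0.39 ± 0.16, neither called. In the PRP19 group 1 of 18 was higher and 2 were lower. CDC5L, a core subunit, rose by 0.59 ± 0.14, though HN 3 (52.9 CPM) lay inside the range of the libraries without NCG (46.1 to 53.5). PRPF19, the ubiquitin ligase that names the complex, had -0.38 ± 0.13 and was not called, CTNNBL1 fell by 0.44 and BUD31 by 0.35. Among the 7 second-step factors and DEAH helicases, SLU7, which helps choose the 3′ splice site, was called higher by 0.77 ± 0.17.

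The exon junction and TREX genes split within one group. THOC2, the large TREX scaffold on chromosome X (101170969 to 101284623, minus strand), was read at 26.1, 21.2 and 19.1 CPM on LF and 71.9, 47.6 and 100 on LN. On HF it was at 29.5, 33.7 and 32.6 CPM and on HN at 68.9, 67.4 and 63.1. The groups did not overlap, and THOC2 rose by 1.37 ± 0.17 and its partner THOC1 by 1.21 ± 0.18. THOC3, another gene of the same complex, had -0.57 ± 0.16 and was not called. MAGOH, on chromosome 6 (158988172 to 158998987, plus strand), pairs with RBM8A (Y14) in the exon junction core. MAGOH had 33.8, 34.7 and 28.5 CPM on LF, 23.9, 20.8 and 19.2 on LN, 40.8, 31.6 and 32.1 on HF and 24.6, 26.6 and 21.5 on HN. It fell by 0.59 ± 0.12 with no overlap, and RBM8A fell by 0.47 ± 0.11. EIF4A3, the helicase that anchors the same core, had -0.46 ± 0.16, and the copy MAGOHB had -0.41 ± 0.16, neither called.

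Among the 11 SR proteins TRA2A and SRSF10 were called. TRA2A, a splicing activator on chromosome 9 (92299171 to 92323789, minus strand), had 71.2, 57.0 and 43.2 CPM on LF, 109, 106 and 201 on LN, 60.8, 86.7 and 62.0 on HF and 116, 224 and 131 on HN. The highest of these libraries, HN 2, is the ileum library with the lowest epithelial sum. TRA2A rose by 1.20 ± 0.23, with no overlap between the 6 libraries of each kind. Its paralogue TRA2B had 0.12 ± 0.13. SRSF10 rose by 0.70 ± 0.15, while SRSF5 had 0.42 ± 0.18 and SRSF1 0.08 ± 0.14, not called. None of the 7 hnRNP genes was called by edgeR, and HNRNPA1 had -0.37 ± 0.15. At an unadjusted p under 0.05 there were 2 of the 7, both negative, beside 21.5% of all genes in either direction.

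The calls differed in how they stood when libraries were left out. Of the 12 higher genes 9 stayed called in all 12 omissions of 1 library and in the 11 other settings tried, among them THOC2, U2SURP, THOC1, PRPF38B, RBM25, DDX46, TRA2A and SF3B1, and MAGOH stayed called in all 12 omissions. SNRPE lost its call in 4 of the 12, SF3B5 in 6, SLU7 in 8, CDC5L in 10, SRSF10 in 3, and the other 6 lower genes in 9 to 12. The count of lower genes ran from 1 (without LF 2, LN 2, HF 1 or HF 3) to 19 (without LN 1), and it was 1 without the 3 libraries high in FABP6.

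**Figure D2:**
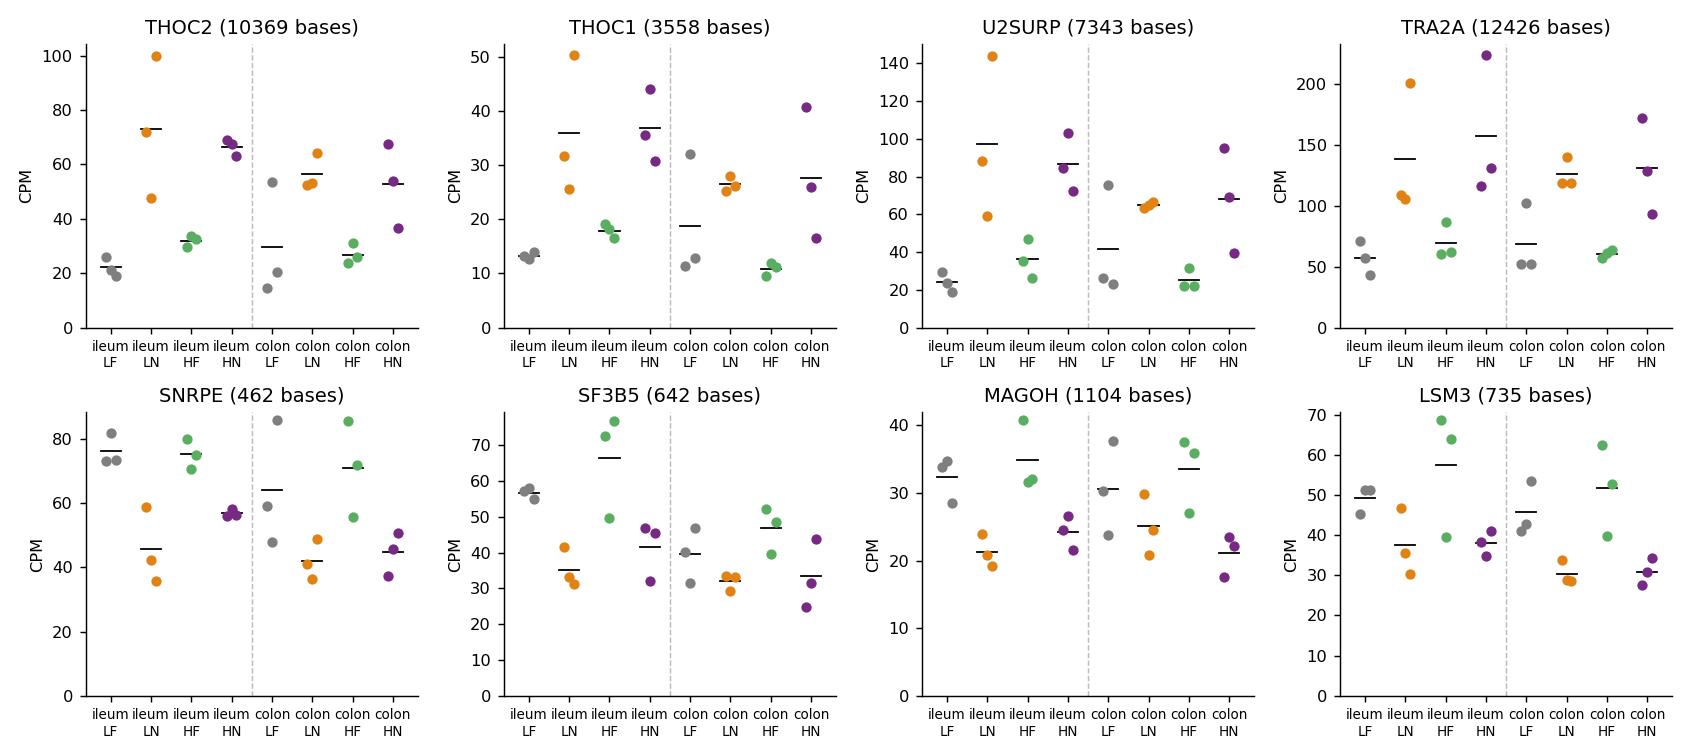
TMM-normalised CPM (vertical axis, from 0) of 8 spliceosome genes in the 8 tissue and diet groups (horizontal axis); each point is 1 library and each bar the mean of 3. In the ileum THOC2 lies at 47.6 to 100 CPM with NCG and 19.1 to 33.7 without, and in the colon the LF library at 53.5 CPM (LF 2) overlaps the libraries with NCG.

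Over the whole set, 11 genes had all 6 ileum libraries with NCG above all 6 without, and 17 had them all below, which is 23.3% of the 120 beside 5.91% of all tested genes. The 11 were the called higher genes other than CDC5L. The 2 fibre backgrounds gave different numbers of calls in the ileum. On the low-fibre diets (LN against LF) 8 genes were called higher and 3 lower, 9.17% beside 4.34% of all genes (4.24% higher and 0.106% lower). U2SURP had 2.04 and THOC1 1.44 there, and SNRPF had -1.16. The 11 calls used the spread of all 12 ileum libraries, and 0 were made from the 6 libraries of LF and LN alone. Leaving out 1 library gave 2 (without LF 2) to 10 higher and 0 to 10 lower (10 without LN 1), and DESeq2 called 12 higher and 23 lower, beside 10.9% of all genes. On the high-fibre diets (HN against HF) edgeR called 0 of the 120 and 0% of all genes, while 23 of the 120 had an unadjusted p under 0.05 (12 higher and 11 lower), 19.2% beside 8.07% of all genes (5.42% higher and 2.65% lower). DESeq2 called 6 of them there, 5 higher and 1 lower, beside 1.44% of all genes, and limma voom 0. The values for the same genes were 1.20 for U2SURP, 0.97 for THOC1 and -0.28 for SNRPF. The difference between the 2 backgrounds was fitted too, and its calls are likewise only listed, with nothing read from them. By edgeR it was called for 0 of the 120 and 0% of all genes. At an unadjusted p under 0.05 there were 3 of the 120 (among them SNRPF at 0.88 ± 0.36 and THOC2 at -0.75 ± 0.34), beside 4.45% of all genes. DESeq2 and limma voom called 0 of the 120 for that difference as well.

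The higher and lower genes differed in length. The deposited lengths of the 120 run from 462 (SNRPE) to 13690 bases (SLU7), with a median of 2671.5. Cut into 3 sets of 40, the shortest (462 to 1734 bases) had a median ileum change of -0.40 with 0 called higher and 7 lower, the middle set (1815 to 3641 bases) -0.24 with 3 and 2, and the longest (3746 to 13690 bases) 0.10 with 9 and 0. All tested genes of those lengths had medians of -0.23, -0.12 and 0.05. Spearman's rho between length and the ileum NCG change was 0.592 over the 120 and 0.281 over the 15103, a description across genes that share the same libraries and their depth. The order by change was not simply the order by length. THOC1 (3558 bases) had 1.21 and PRPF38B (3115 bases) 0.82, while HNRNPC (11711 bases) had -0.24, PRPF8 (7344 bases) -0.35 and ACIN1 (11988 bases) 0.08. With the trend on length taken out of every library, 11 of the 120 were called higher and 4 lower, beside 4.96% of all genes, and 13 of these 15 were among the original 21. THOC2 then had 1.09 ± 0.15, U2SURP 1.42 ± 0.21 and SF3B5 -0.51 ± 0.11, and rho was 0.251. SNRPE (-0.37 ± 0.13) and MAGOH (-0.42 ± 0.13) were no longer called.

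**Figure D3:**
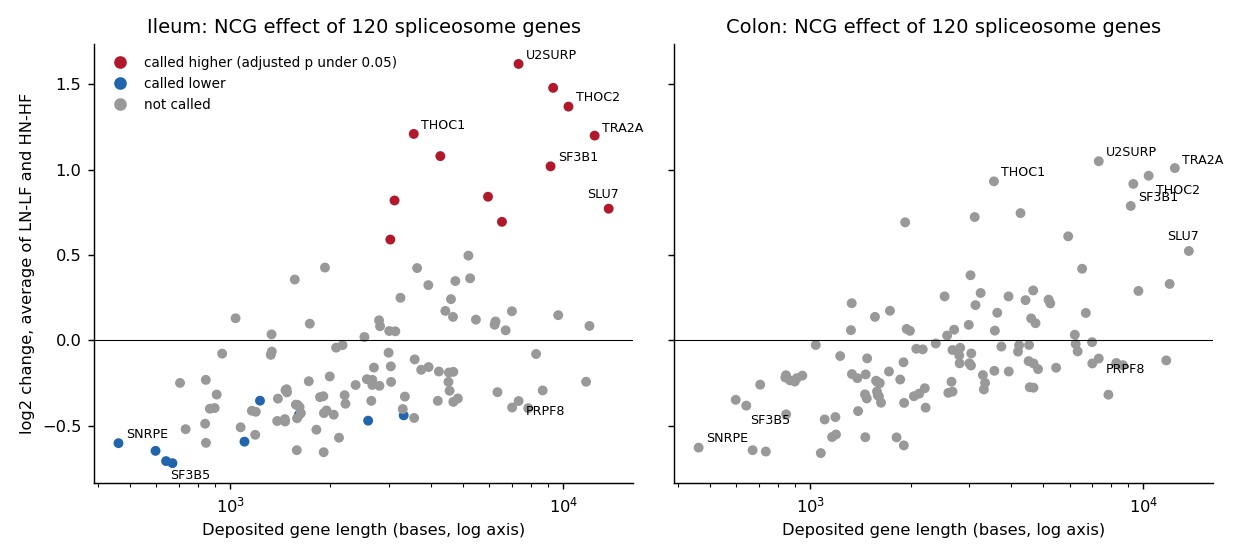
Log2 change with NCG (vertical axis) against deposited gene length (horizontal axis, log scale) for the 120 spliceosome genes in the ileum and the colon. Genes called lower in the ileum are at most 3319 bases long, and 9 of the 12 called higher are among the longest 40, although the long genes HNRNPC, PRPF8 and ACIN1 are not called.

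The same pattern was followed library by library as the mean log2 CPM of the longest 40 genes minus that of the shortest 40. In the ileum it was 0.668, 0.439 and 0.48 on LF, 0.937, 1.08 and 1.39 on LN, 0.512, 0.832 and 0.508 on HF and 0.994, 1.39 and 1.02 on HN. The libraries with NCG (0.937 to 1.39) did not meet those without (0.439 to 0.832). In the colon it was 0.737, 1.09 and 0.475 on LF, 1.1, 1.25 and 1.09 on LN, 0.505, 0.838 and 0.563 on HF and 1.46, 1.24 and 0.824 on HN. There the ranges with NCG (0.824 to 1.46) and without (0.475 to 1.09) overlapped, with colon LF 2 highest without NCG and colon HN 3 lowest with it. The slope of all tested genes on length moved with it. In log2 level per doubling of length it ran from -0.047 to 0.16 with NCG and from -0.14 to -0.042 without in the ileum, and from -0.064 to 0.27 and from -0.13 to 0.18 in the colon. Colon LF 2 (0.18) and colon HN 1 (0.27) had the steepest slopes of their tissue. Messages had been captured by their poly(A) tails, RNA integrity values were not used here, and the part that RNA quality or the marker differences play in these values was not tested.

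**Figure D4:**
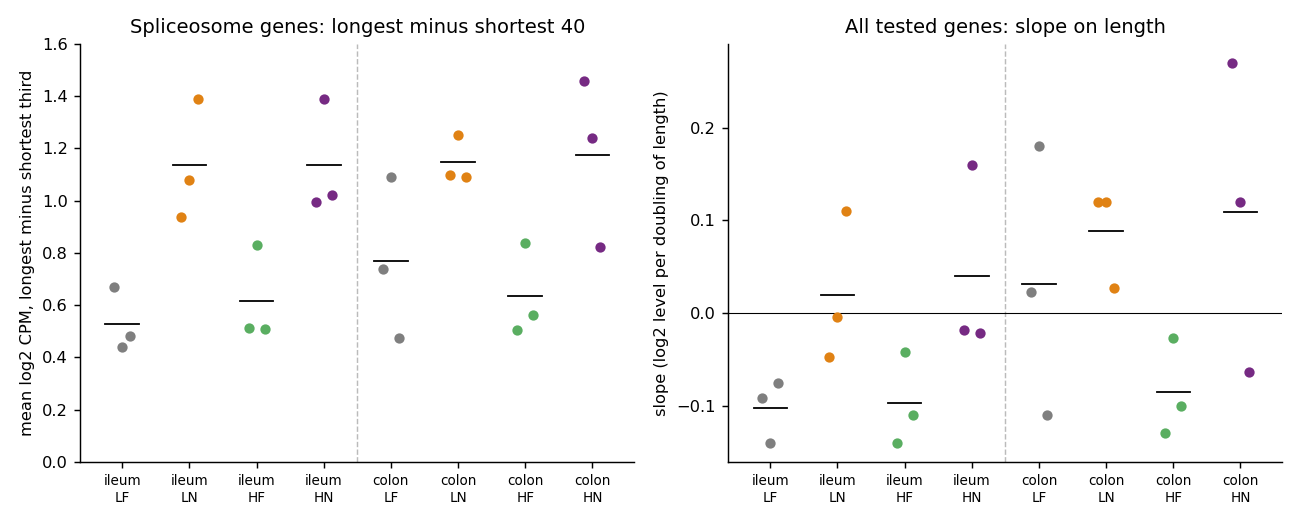
Left, mean log2 CPM of the longest 40 minus the shortest 40 spliceosome genes in each library (vertical axis) by tissue and diet (horizontal axis); right, the slope of all tested genes on length in the same libraries; points are libraries and bars means of 3. In the ileum every library with NCG (0.937 to 1.39) lies above every library without (0.439 to 0.832), whereas in the colon the groups overlap.

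In the colon none of the 120 genes passed for NCG. edgeR called 0 of the 120 and 0% of all 15075 genes, with 34 of the 120 at an unadjusted p under 0.05 (14 higher and 20 lower), 28.3% beside 12.4% of all genes (7.63% higher and 4.73% lower). limma voom called 0, and DESeq2 called 13, of which TRA2A, PRPF38B and SF3B1 were higher and 10 lower, among them LSM3 and MAGOHB. DESeq2 called 3.3% of all genes there. The smallest edgeR p belonged to LSM3, an LSm ring gene on chromosome 13 (70339685 to 70349802, minus strand). LSM3 had 41.1, 42.8 and 53.5 CPM on LF and 33.8, 28.9 and 28.5 on LN, and 62.4, 39.8 and 52.8 on HF and 27.6, 30.8 and 34.4 on HN. The 6 libraries with NCG were all below the 6 without, at a change of -0.65 ± 0.14 (edgeR adjusted p = 0.197). LSM6, of the same ring, was likewise separated (-0.28 ± 0.10, edgeR adjusted p = 0.313). In all 3 of the 120 were separated, 2.5% beside 1.02% of all genes, and all 3 were lower.

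The genes that were higher in the ileum had values of the same sign in the colon. TRA2A had 51.9, 102 and 52.0 CPM on colon LF, 119, 140 and 119 on LN, 57.0, 61.3 and 63.3 on HF and 172, 129 and 93.4 on HN (1.01 ± 0.21, edgeR adjusted p = 0.199). The groups overlapped only through LF 2 (102 CPM) and HN 3 (93.4 CPM). PRPF38B had 0.72 ± 0.17 (edgeR adjusted p = 0.211), U2SURP 1.05 ± 0.32 (0.285) and THOC2 0.96 ± 0.30 (0.288). U2SURP was read at 26.4, 75.7 and 23.3 CPM on colon LF, and THOC2 at 14.5, 53.5 and 20.5, LF 2 again standing at the level of the NCG groups. Of the 12 omissions of 1 colon library, 1 gave calls among the 120 for NCG, and the rest, HN 1 included, gave 0. Leaving out colon LF 2, the library with the fewest epithelial reads, was the omission that did. edgeR then called 9 of the 120, all higher, and 1.91% of 15274 genes. These included TRA2A (1.20 ± 0.17), THOC2 (1.33 ± 0.19), U2SURP (1.41 ± 0.23), THOC1 (1.24 ± 0.22), SF3B1, PRPF38B, RBM25 and DDX46, with edgeR adjusted p from 0.0203 to 0.046. Leaving out colon HN 1 as well, the other library poor in epithelium, gave those same 9 genes and 3.06% of 15174 genes, an alternative chosen after the data were seen. All 9 were among the 12 called higher in the ileum, an overlap listed only as a description. No gene was called lower in either setting, LSM3 coming nearest with edgeR adjusted p values of 0.0573 and 0.0633.

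Gene by gene, the changes in the 2 tissues are listed side by side as a description. The ileum values led to the pathway being taken up, so nothing is read from their match with the colon. Spearman's rho between the ileum and colon NCG changes was 0.893 over the 120 and 0.472 over the 14634 genes tested in both, a description across genes; whether the 2 tissues share sows is not stated. The sign was the same for 106 of the 120, including all 12 genes higher and all 9 lower in the ileum. In each of the 4 separate NCG differences (both tissues, both fibre levels) 20 genes were positive and 56 negative throughout. The lowest colon medians by role were -0.62 for the Sm core and -0.34 for the LSm ring, with all 13 genes of those rings negative. By length, the colon medians were -0.25, -0.08 and 0.01 from the shortest to the longest 40 (all tested genes of those lengths -0.15, -0.02 and 0.17). Spearman's rho with length in the colon was 0.612, against 0.36 over all genes. The difference between the tissues in their NCG effect takes in the ileum values that led to the choice, so nothing is read from its calls. It was called for 0 of the 120 and 0% of 15675 genes by edgeR, and 0 of the 120 had an unadjusted p under 0.05, beside 2.99% of all genes. The point estimates of that difference ran from -0.61 to 0.44 over the 120.

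**Figure D5:**
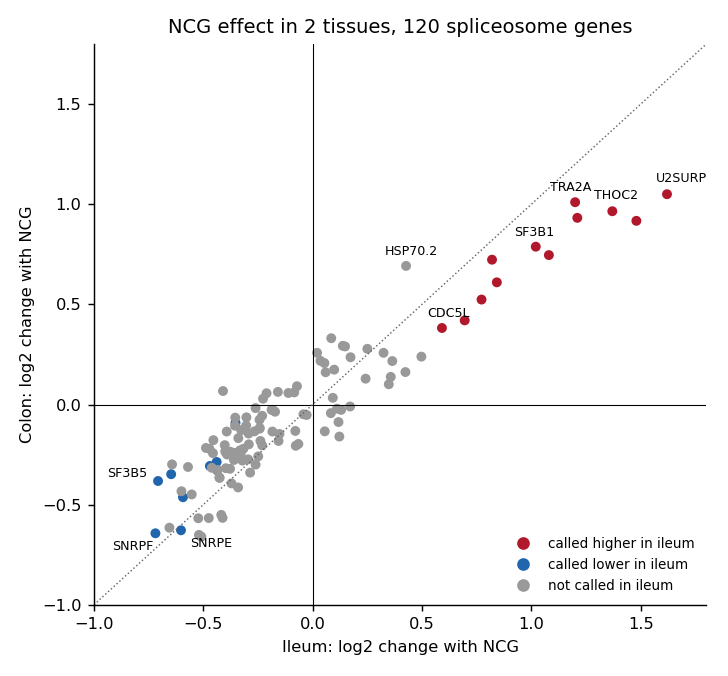
Log2 change with NCG in the colon (vertical axis) against that in the ileum (horizontal axis) for the 120 spliceosome genes; the dotted line marks equal change and colours mark the ileum call. All 12 genes called higher in the ileum lie above 0 in the colon and all 9 called lower lie below 0, and the largest changes lie under the dotted line (U2SURP 1.62 in the ileum and 1.05 in the colon). The ileum values led to the pathway being taken up, so nothing is read from the signs or sizes of change in the 2 tissues.

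At each fibre level on its own, the colon gave no calls for NCG either. LN against LF had 0 of the 120 and 0% of all genes called by edgeR, with 14 of the 120 at an unadjusted p under 0.05 beside 13.3% of all genes, and DESeq2 called 5, all lower, beside 4.33% of all genes. Without the 2 libraries poor in epithelium, the setting chosen after the data were seen, edgeR called 5 higher, beside 1.86% of all genes. MAGOHB (-0.70 ± 0.19) and PUF60 (-0.47 ± 0.14) had the smallest p (edgeR adjusted p = 0.244 and 0.26). HN against HF had 0 called by edgeR, 27 of the 120 at an unadjusted p under 0.05 beside 12.7% of all genes, and 1 lower by DESeq2, which called 0.458% of all genes. THOC1 had 1.36 ± 0.42 and U2SURP 1.46 ± 0.46 there (edgeR adjusted p = 0.391 for both). The interaction of NCG and fibre in the colon was called for 0 of the 120 and 0% of all genes, with RBM17 (0.51 ± 0.21) and SNRNP27 (0.52 ± 0.22) at an unadjusted p under 0.05 (edgeR adjusted p = 0.327 for both), beside 15% of all genes. DESeq2 and limma voom also called 0 of the 120 for it.

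The differences with dietary fibre were small. In the ileum, averaged over both NCG levels, edgeR called 0 of the 120 and 0% of all genes, and 1 of the 120 had an unadjusted p under 0.05, 0.833% beside 5.26% of all genes. That gene was SF3A1, a U2 subunit, at 0.30 ± 0.11 (edgeR adjusted p = 0.802), and DESeq2 and limma voom called 0. Its ileum libraries had 157, 160 and 132 CPM on LF, 132, 145 and 109 on LN, 162, 161 and 170 on HF and 180, 196 and 166 on HN. The 6 high-fibre libraries (161 to 196 CPM) all lay above the 6 low-fibre libraries (109 to 160 CPM). How many of all genes were separated in this way by fibre was not counted, and SF3A1 had the smallest p of the 120. The values were small but mostly of one sign, 99 positive and 21 negative, with a median of 0.12 against -0.02 for all genes. In the colon the count was 53 positive and 67 negative (median -0.03), edgeR called 0 of the 120 and 0% of all genes, and 3 of the 120 had an unadjusted p under 0.05 beside 4.59% of all genes. The first of these was DDX5, an RNA helicase that works with U1, at -0.65 ± 0.15 (edgeR adjusted p = 0.836). DDX5 had 707, 893 and 570 CPM on colon LF and 633, 667 and 603 on LN, and 380, 389 and 377 on HF and 586, 450 and 441 on HN. Only HN 1, one of the 2 libraries poor in epithelium, reached the range of the low-fibre libraries (570 to 893). DESeq2 called DDX5 lower, alone among the 120, and 0.139% of all genes. The ileum values of DDX5 for fibre were -0.11 ± 0.20, and the test of the difference between tissues called 0 of the 120 and 0% of all genes (DDX5 -0.55 ± 0.24, edgeR adjusted p = 1), with 2 of the 120 at an unadjusted p under 0.05 beside 2.79% of all genes.

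Between the tissues themselves, averaged over the 4 diets, 1 of the 120 genes was higher in the colon and 12 were lower, 10.8% beside 28.4% of all 15675 genes (12.5% higher and 15.9% lower, by edgeR). The median of the 120 was -0.09 against -0.03 for all genes, with 31 values positive and 89 negative. The lower genes were SNRNP70 of U1 (-0.36 ± 0.08, edgeR adjusted p = 0.00326), SNRPD3 and SNRPD2 of the Sm ring (-0.49 and -0.44), LSM5 and LSM7 of the LSm ring (-0.36 and -0.38), SF3B5 and U2AF2 of the U2 step (-0.37 and -0.30), PRPF4 and SART1 of the tri-snRNP (-0.34 and -0.19), the SR proteins SRSF5 and SRSF7 (-0.47 and -0.33), and RBMX (-0.22). SNRNP70, which binds U1 RNA directly, lies on chromosome 6 (54288354 to 54304272, plus strand). It was read at 107 to 144 CPM in the 12 ileum libraries and at 79.1 to 126 in the 12 colon libraries, so the ranges overlapped. SRSF5 had 195 to 400 CPM in the ileum and 124 to 231 in the colon (edgeR adjusted p = 0.00737). The gene higher in the colon was HSP70.2, the heat shock member, at 0.62. Smooth muscle marker sums were 1030 to 98700 CPM in the colon and 750 to 40800 in the ileum, and with those markers as a covariate 6 of the 120 were lower and 0 higher, beside 18.8% of all genes. With the length trend removed 6 were higher and 4 lower, beside 29.8% of all genes, and leaving out colon LN 2 left 6 lower. SRSF5 was lower in every one of these settings.

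Splicing genes outside the pathway annotation were read from 4 lists, beside the ileum background of 5.85% called and a median of -0.07. In the ileum with NCG, 2 of 10 measured proteins of the minor spliceosome, which removes a rare class of introns, were higher: RNPC3 (1.54 ± 0.22) and ZCRB1 (0.97 ± 0.22). None of the 16 snRNP assembly genes, which load Sm rings onto the small RNAs, was called by edgeR. At an unadjusted p under 0.05 there were 5 of the 16, beside 21.5% of all genes. Of their 16 values 15 were negative, SMN1 at -0.29 ± 0.11 (list median -0.16). Of 32 splicing kinases and regulators 8 were higher and 0 lower, among them CLK1 (1.50 ± 0.23) and CLK4 (1.31 ± 0.20), kinases of SR proteins, and TIA1 (1.11 ± 0.17), which promotes U1 binding (list median 0.10). Of 13 further spliceosome proteins LUC7L3 (1.40 ± 0.21), CWC22 (1.52 ± 0.23) and CWC27 (0.80 ± 0.19) were higher and RBM42 (-0.58 ± 0.13) and SMU1 (-0.46 ± 0.12) lower (list median 0.02). Among the higher genes, CLK1 and ZCRB1 have lengths of 1975 and 1352 bases. Lengths of the rest are not given here, and the part of length in the values of these lists was not tested. In the colon no gene of these 4 lists was called, with edgeR unadjusted p under 0.05 in 2 of 10, 3 of 16, 13 of 32 and 7 of 13, beside 12.4% of all genes, and CLK4 had 1.15 ± 0.32 (edgeR adjusted p = 0.255).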

How the data were processed

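The deposited table gives, for each gene and library, the read count and the FPKM value (fragments scaled by gene length and library size), both made by the authors, beside a gene length in bases, a name and a pathway annotation. Libraries were poly(A)-captured and paired-end, per the labels' protocols. fastp 0.22.0, HISAT2 2.1.0, HTSeq 0.9.1 and the build Sscrofa11.1 are named per the submitters' processing notes; their settings, and whether counting used strand, are not given in the sources used here. The deposited counts were tested as they stand; the deposited FPKM values were used only to compare levels between genes, and the deposited lengths to order them.

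The 120 genes, their roles and the other gene lists were chosen with earlier results of these data known. All 120 matched RefSeq by gene ID with the same start and end. Library sizes were the summed counts. Genes were filtered with edgeR's filterByExpr, normalised by TMM and tested with edgeR's quasi-likelihood F-test (edgeR 4.0.16, R 4.3.3), with Benjamini-Hochberg adjustment over all tested genes and a threshold of 0.05. The 12 libraries of a tissue were fitted by diet group, and all 24 together for tissue differences. CPM (counts scaled to a common library size) are TMM-normalised over the 24 libraries, except for the FABP6 values and the cuts at 500 CPM. A prior count of 2 was set for log2 values. The scripts were tested on simulated data. Alternatives were RLE and upper-quartile scaling, filters, DESeq2 1.42.0, limma voom 3.58.1, removal of a per-library loess trend on length, other sets of libraries, a smooth muscle covariate and a replicate block. Leaving out the 2 colon libraries with epithelial marker sums under 500 CPM was chosen after seeing the data.

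Named genes are, per comparison, up to 10 higher and 10 lower past the threshold (the 3 smallest p where fewer pass), the 5 shortest and longest, a fixed set (of which HNRNPU is not in the table), and up to 3 per outside list; further members are named for their role, with their values known. Results of some genes are not reported here.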

Additional observations from a re-analysis of the deposited data

How the results depend on the processing

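Of 294 counts of called genes recomputed in 13 settings, 260 were within 1.5 times the reported count. A count of 0 that stayed 0 was scored as within, and most of the reported counts were 0. The 203 named values were refitted 5238 times, omissions of 1 library included. None that was called changed sign, but 286 of these fits lost a call and 47 gained one. For the counts that moved further the cause was not tested. For ileum NCG the 9 lower genes became 30 by DESeq2, 4 without a filter or with the length trend removed, and 1 without the 3 ileum libraries high in FABP6. For ileum LN against LF (8 higher, 3 lower), upper-quartile scaling gave 5 higher, DESeq2 23 lower, no filter and the length trend removed 1 lower each, the FABP6 setting 0 lower, and the 6 libraries alone 0 and 0. DESeq2 made calls where edgeR made none: 5 higher and 1 lower for ileum HN against HF, 3 and 10 for colon NCG, 1 lower for colon fibre, 5 lower for colon LN against LF and 1 lower for colon HN against HF. For colon against ileum (1 higher, 12 lower) the higher count was 2 by RLE and by upper quartile, 3 by DESeq2, 6 with the length trend removed (4 lower), 0 without the FABP6 libraries and 0 with the smooth muscle covariate (6 lower). Without the 2 colon libraries poor in epithelium, it was 0, colon NCG had 9 higher and colon LN against LF 5 higher.

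Leaving out 1 library at a time gave 9 to 12 higher and 1 to 19 lower for ileum NCG, 2 (without ileum LF 2) to 10 higher and 0 to 10 lower (10 without ileum LN 1) for ileum LN against LF, 0 to 9 higher for colon NCG (9 without colon LF 2), and 0 to 3 higher and 6 to 14 lower for colon against ileum. Every other count stayed at 0. SRSF10 was not called without ileum HF 1, HF 3 or LF 2.

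The labels do not say that a number marks a shared sow or batch, and the correlation of same-numbered libraries' deviations was above 0.1 in 8 of 18 pairs between ileum diets, 7 of 18 between colon diets and 5 of 12 between tissues (medians 0.0584, -0.0434 and 0.0518, highest 0.713, 0.824 and 0.307), so the numbers were not taken as pairs. With the replicate block, ileum NCG had 4 lower, ileum LN against LF 5 higher and 1 lower, and colon against ileum 0 higher and 7 lower. With 3 libraries a group, the spread between libraries limits every count, and genes with 40 counts in a library are the least precise.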
